A study of Rattus norvegicus with 8 samples.

Results

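A set of 10 genes was followed in the rat amygdala during the development of epilepsy: Abca1, Abcg1, Soat1, Plin2, Ch25h, Olr1, Apoe, Fabp7, Lcat and Nr1h3. These genes act in the export and storage of sterols and fatty acids, or in the sensing, uptake and transport around them. They were chosen by name from a textbook pathway, with earlier results of the same arrays known, and every probe set of the Affymetrix rat genome array annotated to exactly 1 of these symbols was taken. That gave 18 probe sets for 10 genes, of 31042 probe sets and 14217 named genes on the array. A probe set's value is its MAS5 signal on the log2 scale, so a step of 1 is a 2-fold step in signal.

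RNA came from the basolateral amygdala (its basal and its lateral nucleus), isolated with a laser from sections of the temporal lobe on the operated side and amplified in 2 rounds. Control rats had been operated on without stimulation, and epileptogenic rats had been stimulated in the amygdala, had gone through status epilepticus (a prolonged seizure) that met the study's criterion, and had shown no spontaneous seizure since. On day 8 every rat went through 2 conditioning trials, in which a tone of 75 dB lasted 20 s and a shock to the feet of 1.5 mA lasted 1 s. The shock ended together with the tone in the paired groups and came before it in the unpaired groups. Tissue was collected 3 h later. The 4 groups (control unpaired, control paired, epileptogenic unpaired, epileptogenic paired) had 2 arrays each, lettered A and B, each with pooled RNA of 2 of the group's 4 rats, 16 rats in all. Strain, sex and age are not given in the sources used here. All groups shared the surgery, the shock and the tone, so no group shows untouched tissue.

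Brain cells make nearly all of their own cholesterol, and glia pass it to neurons on particles built around apolipoprotein E. When phagocytes take up myelin or dead cells they must either export the sterol, through ABC transporters that load lipoproteins, or esterify it and keep it in lipid droplets. Oxysterols act as the signal of sterol excess: they bind the liver X receptors, which switch on the exporters.

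Across the 8 arrays, 8 of the 9 genes that passed the filter on dim probe sets had higher signals on all 4 epileptogenic arrays than on any of the 4 control arrays, and Abcg1 was the exception. Over all tested probe sets, 7.29% were separated upward in this way. In limma, 7 of the 9 tested genes passed upward (Abca1, Soat1, Plin2, Ch25h, Olr1, Fabp7 and Lcat), beside 2.81% of all tested probe sets, and 8 passed with the replicate letter as a block, beside 7.58%. Because the genes were chosen with this contrast known, these counts describe the genes and no test is read from them. The median log2 difference of the 9 genes was 1.68, against -0.11 over all 18625 tested probe sets.

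Upstream sequence is shown for 3 of the genes whose signals were higher in epileptogenic rats: an exporter, a droplet protein and a scavenger receptor. The sequences are from RefSeq (build GRCr8), each the 250 bases before the annotated start, 5′ to 3′ on the gene's strand, and capitals mark matches to 4 short motifs searched on both strands.
Abca1, chr5:72596474-72596723, minus strand: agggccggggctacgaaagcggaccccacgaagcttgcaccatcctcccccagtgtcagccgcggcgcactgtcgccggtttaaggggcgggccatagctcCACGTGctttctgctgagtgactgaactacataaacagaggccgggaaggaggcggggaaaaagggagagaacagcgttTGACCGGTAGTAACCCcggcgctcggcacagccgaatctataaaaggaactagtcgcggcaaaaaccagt
Plin2, chr5:106229019-106229268, minus strand: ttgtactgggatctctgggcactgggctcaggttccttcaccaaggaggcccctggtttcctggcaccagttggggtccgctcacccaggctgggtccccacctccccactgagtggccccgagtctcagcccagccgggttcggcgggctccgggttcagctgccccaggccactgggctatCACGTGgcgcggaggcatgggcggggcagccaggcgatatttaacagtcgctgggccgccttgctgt
Olr1, chr4:164634548-164634797, minus strand: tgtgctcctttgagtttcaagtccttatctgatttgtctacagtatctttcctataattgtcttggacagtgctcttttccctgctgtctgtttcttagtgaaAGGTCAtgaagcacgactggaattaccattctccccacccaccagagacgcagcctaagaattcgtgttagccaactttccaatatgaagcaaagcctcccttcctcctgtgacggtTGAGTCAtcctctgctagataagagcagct
The motifs were the nuclear receptor half-site AGGTCA, a loose direct repeat of it (NGGTNA, then any 4 bases, then NGGTCA, the arrangement that liver X receptors bind), the AP-1 site TGANTCA and the E-box CACGTG. In Abca1 the direct repeat began 70 bases before the start and an E-box 149 bases before it. The Plin2 sequence held an E-box 67 bases before the start, and the Olr1 sequence a half-site at 147 and an AP-1 site at 30 bases. No 2 of these matches overlapped. Among all 33469 upstream windows of the same length, 0.209% held the direct repeat, 14.1% the half-site, 6.34% the AP-1 site and 5.59% the E-box. Of the 9 genes with a window, Abca1 was the only one with the direct repeat. Fabp7 held a half-site. The windows of Soat1, Ch25h, Lcat, Apoe and Nr1h3 held no match to any of the motifs, nor did another window of Plin2. The sequences shown are thus from genes with a match. A match describes letters in a window and does not show binding.

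**Figure D1:**
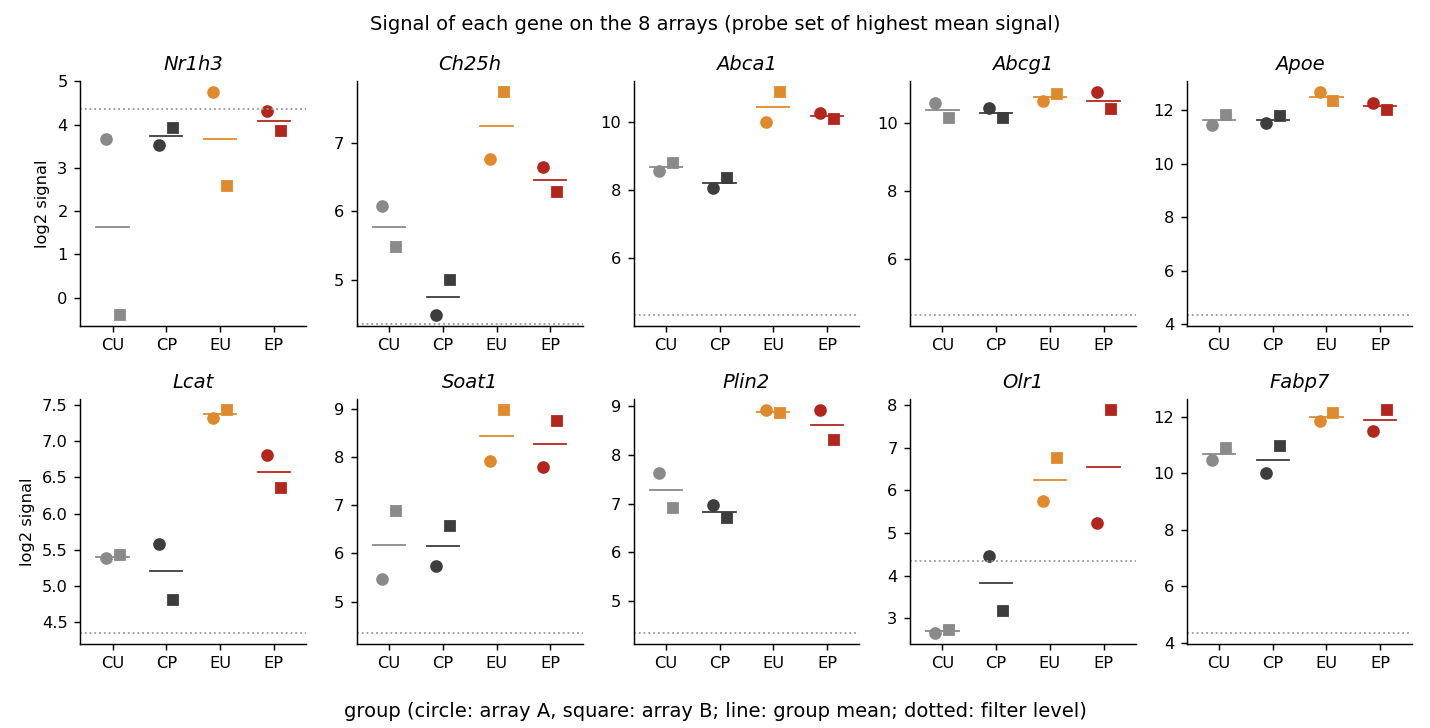
Log2 signal (vertical axis) of each gene's brightest probe set on the 8 arrays, by group on the horizontal axis (CU control unpaired, CP control paired, EU epileptogenic unpaired, EP epileptogenic paired); circles are arrays A, squares arrays B, short lines group means and the dotted line the filter level of 4.35. In 8 genes, all but Abcg1 and Nr1h3, every epileptogenic array lies above every control array.

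The sensing arm has an enzyme and a receptor. Ch25h encodes cholesterol 25-hydroxylase, which makes an oxysterol and is induced in macrophages by interferon. Its log2 signal was 6.08 and 5.47 in control unpaired, 4.49 and 4.99 in control paired, 6.76 and 7.74 in epileptogenic unpaired and 6.64 and 6.28 in epileptogenic paired arrays (A and B in each case). The epileptogenic arrays were higher by 1.60 ± 0.30 (SE of the fit), or 3.03-fold, although only 0.21 separated the lowest of them from the highest control array. Nr1h3 encodes liver X receptor alpha, the receptor of these oxysterols. Its single probe set had a mean under the filter level (log2 4.35, a signal of 20.3) and was not tested: it lay between -0.39 and 3.93 in control and between 2.58 and 4.75 in epileptogenic arrays, with overlapping groups. Only 1 of 8 arrays exceeded the filter level, so the level of Nr1h3 could not be followed here.

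Of the exporters, Abca1, which loads cholesterol and phospholipid onto lipid-poor apolipoproteins, was higher in epileptogenic arrays. Its brightest probe set read 8.56 and 8.80 in control unpaired, 8.06 and 8.35 in control paired, 9.99 and 10.87 in epileptogenic unpaired, and 10.27 and 10.09 in epileptogenic paired arrays. The gap between the groups was 1.19, wider than the range within either side, and the difference was 1.86 ± 0.22, or 3.64-fold. Another 2 probe sets of Abca1 gave 1.79 ± 0.32 and 1.58 ± 0.28, also without overlap. The fourth was dim (above the filter level on 2 of 8 arrays), was not tested and showed a mean difference of 0.04.

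Abcg1, which exports cholesterol to mature high-density particles and is likewise a textbook liver X receptor target, gave other values. Its brightest probe set read 10.58 and 10.15 in control unpaired, 10.44 and 10.15 in control paired, 10.65 and 10.84 in epileptogenic unpaired, and 10.90 and 10.40 in epileptogenic paired arrays. The groups overlapped and the difference was 0.37 ± 0.19, or 1.29-fold, short of the threshold, which does not show that the gene was unchanged. The other 2 probe sets of Abcg1 gave 0.07 ± 0.32 and -0.08 ± 0.45, so no probe set of this gene separated the groups. The second brightest differed by 0.71 ± 0.46 after unpaired and by -0.57 ± 0.46 after paired training.

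The particle side of efflux is represented by Apoe, the main apolipoprotein made in brain, and Lcat, the enzyme that esterifies cholesterol on lipoproteins. Apoe read 11.44 and 11.84 in control unpaired, 11.53 and 11.77 in control paired, 12.68 and 12.35 in epileptogenic unpaired, and 12.29 and 12.02 in epileptogenic paired arrays. All epileptogenic arrays were higher, by 0.18 at the closest, and the difference was 0.69 ± 0.17, or 1.61-fold. Apoe missed the limma threshold without the replicate block and passed with it. Its second probe set was not tested, since none of its 8 values reached the filter level. Lcat read 5.38 and 5.43 in control unpaired, 5.58 and 4.81 in control paired, 7.33 and 7.43 in epileptogenic unpaired, and 6.81 and 6.35 in epileptogenic paired arrays. Here both epileptogenic groups stood clear of both control groups, and the difference was 1.68 ± 0.26, or 3.21-fold.

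Storage genes were higher as well. Soat1 encodes the acyltransferase that esterifies cholesterol in the endoplasmic reticulum. Its tested probe set read 5.47 and 6.88 in control unpaired, 5.74 and 6.57 in control paired, 7.92 and 8.98 in epileptogenic unpaired, and 7.80 and 8.76 in epileptogenic paired arrays. In each of the 4 groups array B was the higher one, and the difference was 2.20 ± 0.40, or 4.60-fold, with an SE of 0.16 once the letter was in the model. The other probe set of Soat1 lay far under the filter level on all arrays and was not tested. Plin2 encodes perilipin 2, a coat protein of lipid droplets used as a marker of lipid-laden cells. Its brightest probe set read 7.63 and 6.92 in control unpaired, 6.98 and 6.71 in control paired, 8.92 and 8.86 in epileptogenic unpaired, and 8.92 and 8.32 in epileptogenic paired arrays. That is a difference of 1.70 ± 0.24, or 3.24-fold, with 0.69 between the groups at the closest. A second probe set of Plin2 gave 1.02 ± 0.27, again with no overlap, but missed the threshold without the block.

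Uptake and transport inside the cell are represented by Olr1, a scavenger receptor for oxidised lipoprotein, and Fabp7, the fatty acid binding protein of radial glia and astrocytes. Olr1 read 2.66 and 2.73 in control unpaired, 4.47 and 3.17 in control paired, 5.75 and 6.76 in epileptogenic unpaired, and 5.24 and 7.88 in epileptogenic paired arrays. Its difference of 3.15 ± 0.60 (8.87-fold) rests on a control mean of 3.26, under the filter level, and the gene passed the filter through its epileptogenic signal. With an offset of 16 added to the signals, the difference was 1.98 on the log2 scale, beside 1.97 for Soat1. For Fabp7 the values were 10.47 and 10.91 in control unpaired, 10.01 and 10.95 in control paired, 11.86 and 12.12 in epileptogenic unpaired, and 11.50 and 12.23 in epileptogenic paired arrays. The difference was 1.34 ± 0.25, or 2.53-fold, and the lowest epileptogenic array stood 0.55 above the highest control array.

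**Figure D2:**
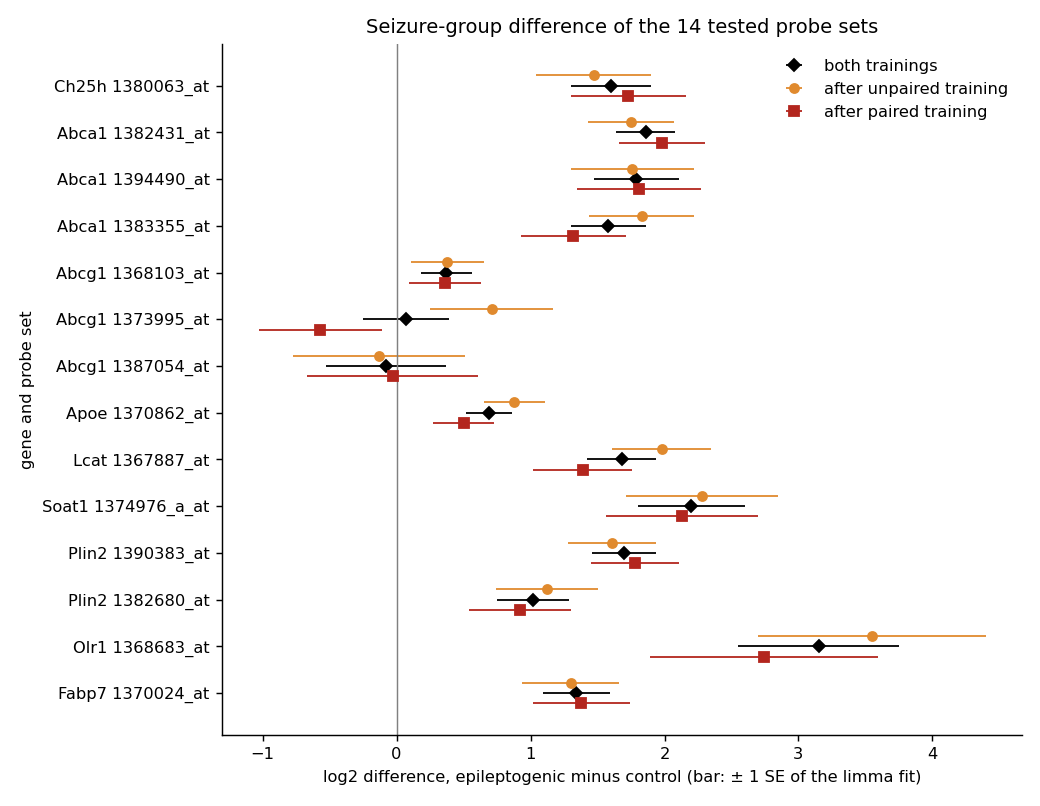
Log2 difference between epileptogenic and control arrays (horizontal axis) for the 14 tested probe sets (vertical axis), over both trainings (diamonds) and within unpaired (circles) or paired (squares) training; bars are 1 SE of the limma fit either way. All 3 Abca1 probe sets lie between 1.58 and 1.86 over both trainings, and those of Abcg1 between -0.08 and 0.37.

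The 2 array letters gave unequal sizes for some genes. Differences within letter A and within letter B were 1.82 and 1.91 for Abca1, 2.26 and 2.15 for Soat1, 1.62 and 1.78 for Plin2, 1.42 and 1.78 for Ch25h, 1.44 and 1.24 for Fabp7, and 1.60 and 1.77 for Lcat. Olr1 differed by 1.93 within letter A and by 4.37 within letter B, and Apoe by 1.00 and 0.38. For these 8 genes the direction within a letter was fixed, since all their epileptogenic arrays lay above all control arrays. The size for Olr1 and Apoe differed between the letters. Single arrays also mattered: Abca1 and Plin2 passed with any 1 array left out and Lcat in 7 of the 8 such fits, but Soat1 passed in 5 and Ch25h, Olr1 and Fabp7 in 3. Of the 9 genes 2 passed without epileptogenic unpaired B, 3 without epileptogenic paired B and 4 without control paired A. Calls among 84 related lipid genes fell as well, from 10 to between 4 and 7 with an array left out. The share of all tested probe sets called in these fits is not given here. Whether the lost calls are particular to these genes was not tested. The largest difference of Olr1 within a training and letter was 4.71, in paired B, and without that epileptogenic array its overall difference was 2.49. Without epileptogenic paired A it was 3.81.

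Within each training the differences had the same sign but mostly missed the threshold, with 2 arrays a side. After unpaired training the 9 genes differed by 0.38 to 3.55 (median 1.61), and after paired training by 0.36 to 2.74 (median 1.73). Of the 9, 0 passed after unpaired training in limma, beside 0.290% of all tested probe sets called upward, and 1 after paired training (Abca1, 1.98 ± 0.32), beside 0.521%. The replicate block raised these counts to 7 and 6, beside 3.40% and 3.45%.

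The training comparison is not named as a basis for choosing these genes, although earlier results of these arrays were known then. Paired against unpaired training gave log2 differences between -0.91 and 0.72, with 8 of 9 genes below 0. Their median was -0.18, against -0.02 over all tested probe sets, and 0 genes passed in limma (smallest adjusted p = 1.00). No probe set on the array passed this comparison (0.00% called), although 214 (1.15%) had an unadjusted p under 0.05, among them 1 of these genes. That gene was Ch25h, the oxysterol enzyme, with -0.91 ± 0.30 (adjusted p = 1.00 in limma, 0.998 with the block), a value that did not hold up against the number of probe sets tested. Its difference between trainings was -1.04 ± 0.43 in control and -0.78 ± 0.43 in epileptogenic arrays, and within each seizure group both unpaired arrays lay above both paired arrays, as they did for 14.6% of all tested probe sets in control and 11.7% in epileptogenic rats. Lcat differed by -0.50 ± 0.26 between trainings (adjusted p = 1.00), with -0.21 ± 0.37 in control and -0.80 ± 0.37 in epileptogenic arrays. With the replicate block in limma 3 of the 9 genes had an unadjusted p under 0.05 (Ch25h, Lcat and Plin2), and 0 passed. The share of all tested probe sets with such a p is not given for the block. No gene of the 9 separated the 4 paired from the 4 unpaired arrays, beside 0.859% of all tested probe sets.

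**Figure D3:**
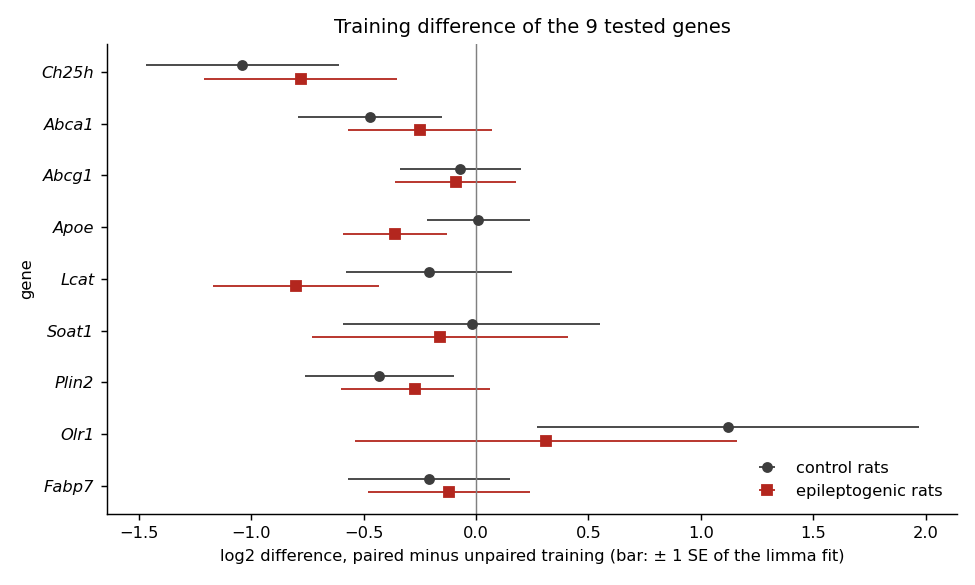
Log2 difference between paired and unpaired training (horizontal axis) for the 9 tested genes (vertical axis), in control rats (circles) and epileptogenic rats (squares); bars are 1 SE of the limma fit either way. Ch25h lies lowest in control rats at -1.04, and none of the differences passed the test.

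No difference in the effect of training between seizure and control rats was detectable for these genes. Interaction terms of the 9 genes lay between -0.81 and 0.25 with a median of -0.02, and 0 passed in limma (smallest adjusted p = 1.00, 0.880 with the block). Across the array 0.00% of probe sets passed this term, while 274 (1.47%) had an unadjusted p under 0.05, 0 of them among these genes. With 2 arrays in each group the SE of the term was 0.38 for Abcg1, 0.45 for Abca1 and 1.21 for Olr1, which limits what could be detected. The second brightest probe set of Abcg1, with opposite signs after the 2 trainings, had an interaction of -1.28 ± 0.65 (adjusted p = 1.00 in limma, 0.868 with the block).

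Ordering the 4 group means put epileptogenic unpaired first for 8 of the 10 genes and epileptogenic paired first for Olr1 and Nr1h3. In Abca1, Soat1, Plin2, Fabp7 and Olr1 the 2 epileptogenic groups overlapped, so their order is not resolved. In Ch25h, Apoe and Lcat both epileptogenic unpaired arrays exceeded both epileptogenic paired arrays, beside 11.7% of all tested probe sets separated in that direction. This is a separation of 2 against 2 arrays, with no call behind it. For Abcg1 and Nr1h3 all neighbouring groups overlapped.

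Other genes of sterol and fatty acid handling were read from 5 lists, 115 entries of which 103 were on the array and 84 were tested. These lists too were drawn up with earlier results of these arrays known. Their counts and adjusted p therefore describe the genes, and no test of a list is read from them. In limma 10 of these 84 rose, 0 fell and the median log2 difference was -0.18, beside 2.81% of all probe sets called upward and 0.827% downward. With the replicate block 13 rose and 11 fell, beside 7.58% and 8.65%. Of 16 tested genes of sterol efflux and oxysterols (median -0.05), 2 rose and 0 fell, whereas with the block 2 were higher and 2 lower. The lower ones, named after their values were seen, were Abca5, an ABC transporter, with -0.86 ± 0.26 (adjusted p = 0.110 in limma, 0.0178 with the block), and Cyp46a1, the neuronal enzyme that makes 24-hydroxycholesterol, with -0.75 ± 0.26 (adjusted p = 0.160, 0.0490 with the block). Npc2, the soluble protein that hands cholesterol out of the lysosome, rose by 1.72 ± 0.18 (adjusted p = 0.00237 in limma). Cyp7b1, which degrades 25-hydroxycholesterol, rose by 1.06 ± 0.23 (adjusted p = 0.0378), a call lost when any 1 of the 8 arrays was left out.

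In the list of lipid droplets and fatty acid handling 1 of 25 tested genes rose (median -0.15), beside 2.81% of all tested probe sets. With the block 2 rose and 1 fell, beside 7.58% and 8.65%. The gene that rose without the block was Fabp5, by 0.79 ± 0.18 (adjusted p = 0.0476 in limma). Fabp5, a fatty acid binding protein of glia and neurons, lost the call with any 1 array left out. Plin1 and Plin5, the perilipins best known from fat and muscle, were under the filter level, and Plin3 and Plin4 were tested without a call. Among 11 tested nuclear receptors and regulators (median -0.18) only Srebf1 rose, by 1.18 ± 0.23 (adjusted p = 0.0263). Srebf1 encodes the transcription factor of fatty acid synthesis, and it passed in 1 of the 8 fits with an array left out. Averaging its probe sets gave 0.49 without a call, and the call was also lost with median centring and with no trend. Nr1h2, the second liver X receptor, was not tested because its mean lay under the filter level, as was Rxra, the partner of these receptors.

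Lipoproteins and their receptors had the highest median of the 5 lists, 0.84, and 6 of 15 tested genes rose, beside 2.81% of all tested probe sets. The largest increases were in phagocyte receptors: Cd68, a lysosomal scavenger receptor relative, by 3.98 ± 0.68 (adjusted p = 0.0165 in limma, from a control mean of 4.12 under the filter level), Cxcl16, a chemokine that also binds oxidised lipoprotein, by 2.21 ± 0.27 (adjusted p = 0.00419) and Trem2, a lipid-sensing receptor of microglia, by 1.86 ± 0.43 (adjusted p = 0.0472). Cd68 also belongs to the list of microglia markers. Its control arrays ran from 0.70 to 5.69, its difference was 3.00 without control paired A, 4.96 without control paired B and 2.82 with an offset of 16, and its call was lost without epileptogenic unpaired B and without epileptogenic paired A. Trem2 lost the call in 7 of the 8 fits with an array left out, and differed by 1.04 within letter A and by 2.69 within letter B. The remaining 3 are named after their values were seen: Clu, a secreted apolipoprotein, rose by 1.44 ± 0.18, Pltp, a phospholipid transfer protein, by 1.54 ± 0.19, and Scarb2, a lysosomal membrane receptor, by 1.59 ± 0.25. The 17 tested genes of cholesterol synthesis went the other way in their median, -0.58. In limma 0 were called in either direction, beside 2.81% of all tested probe sets upward and 0.827% downward. With the block 8 were lower, beside 8.65%. Msmo1 showed -0.89 ± 0.21 (adjusted p = 0.0550, 0.00571 with the block) and Cyp51 -0.79 ± 0.22 (adjusted p = 0.0848, 0.00764 with the block), both enzymes of the late sterol pathway.

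**Figure D4:**
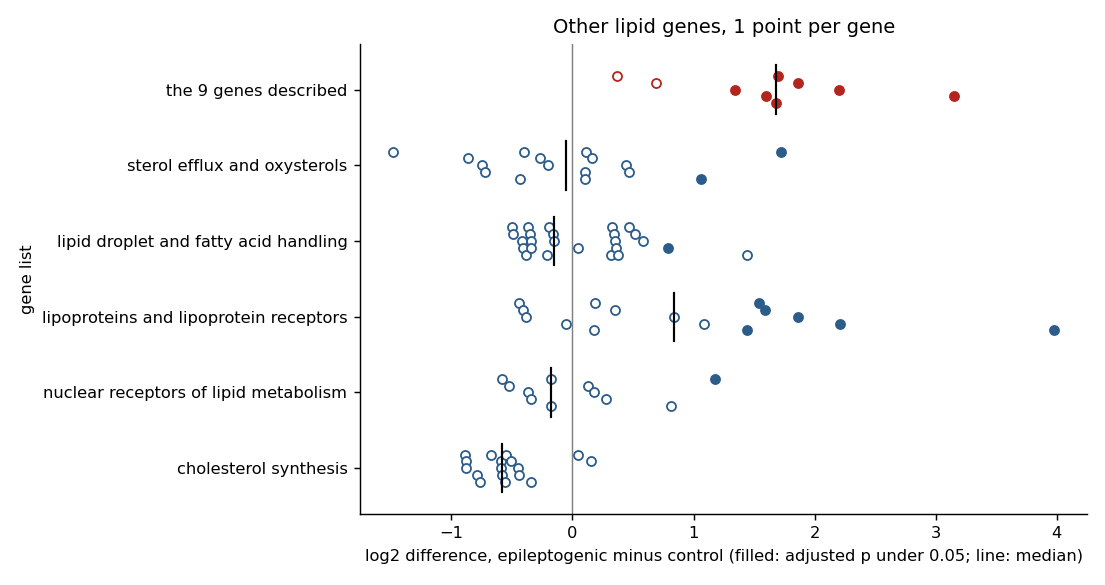
Log2 difference between epileptogenic and control arrays (horizontal axis), 1 point for each tested gene of the 9 described and of 5 lists of other lipid genes (vertical axis); filled points passed the limma threshold and black lines are medians. The medians run from -0.58 for cholesterol synthesis to 1.68 for the 9 genes, which were chosen with this contrast known.

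The genes whose profiles over the 8 arrays came closest were found by the root mean square difference between mean-centred log2 profiles, among 10355 tested named genes. For Abca1 they were Smpdl3a (0.12), Ctsh (0.18) and Rab32 (0.19), a secreted phosphodiesterase, a lysosomal protease and a small GTPase. Closest to Plin2 were Tyrobp (0.16), the signalling adaptor of microglial receptors, Mgst1 (0.16), a glutathione transferase, and Il17ra (0.17), an interleukin receptor. Apoe had Cmtm5 (0.11), Stard8 (0.12) and Serf2 (0.13) as nearest profiles. The likeness is a description of these 8 arrays.

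Markers of cell types moved with the same contrast, and at most 3 of each list are named here, picked after their values were seen. The lists were also drawn up with earlier results of these arrays known. Over all tested probe sets 2.81% were called upward and 0.827% downward in limma. Of 14 tested microglia and macrophage genes 12 rose (median log2 difference 2.29), and the mean of the list was 5.88 to 6.68 on control and 8.31 to 8.83 on epileptogenic arrays. Laptm5 rose by 2.67 ± 0.19 and P2ry12, which resident microglia express, by 1.75 ± 0.19, while Cx3cr1 showed -0.40 ± 0.58 and did not pass. In a list of 7 further macrophage markers 4 were under the filter level (Cd163 and Ccr2 among them). Of the 3 tested 1 rose, Mrc1 by 1.42 ± 0.25, with list means of 6.39 to 7.68 on control and 7.90 to 8.67 on epileptogenic arrays. Whether such cells came from blood was not tested. Of 11 tested astrocyte markers 4 rose (median 0.36), with list means of 8.93 to 9.48 on control and 9.70 to 9.95 on epileptogenic arrays. Gfap rose by 2.83 ± 0.29, and Slc1a3 showed 0.06 ± 0.22.

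Neuronal markers went down in their median (-0.68) and 1 of 12 tested fell, Neurod6 with -1.33 ± 0.29, beside 0.827% of all tested probe sets. With the block 5 fell, beside 8.65%. The neuronal list means were 8.36 to 8.49 on control and 7.60 to 7.98 on epileptogenic arrays. Oligodendrocyte markers had a median of 0.62, and 1 of 9 tested rose, beside 2.81% of all tested probe sets. With the block 4 rose, beside 7.58%. The oligodendrocyte list means were 8.41 to 8.88 on control and 8.96 to 10.05 on epileptogenic arrays. Neither the 8 tested endothelial and mural markers (median 0.35, list means of 6.77 to 7.13 and 7.15 to 7.32) nor the 5 of choroid plexus and ependyma (median 0.14, list means of 5.42 to 6.56 and 5.56 to 7.04) gave a call without the block. The only tested red cell marker, Hbb, showed -1.02 ± 0.53. In dissected tissue a larger share of cells of a type and more RNA per cell cannot be told apart, and the part of cell make-up in the lipid gene values was not tested. In this tissue, labelled as amygdala, 12 of the 13 neuronal markers on the array had a mean signal above the filter level. Among them Snap25 and Slc17a6 had mean log2 signals of 12.78 and 6.37 over the 8 arrays. Which nuclei the tissue held was not tested by these markers.

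**Figure D5:**
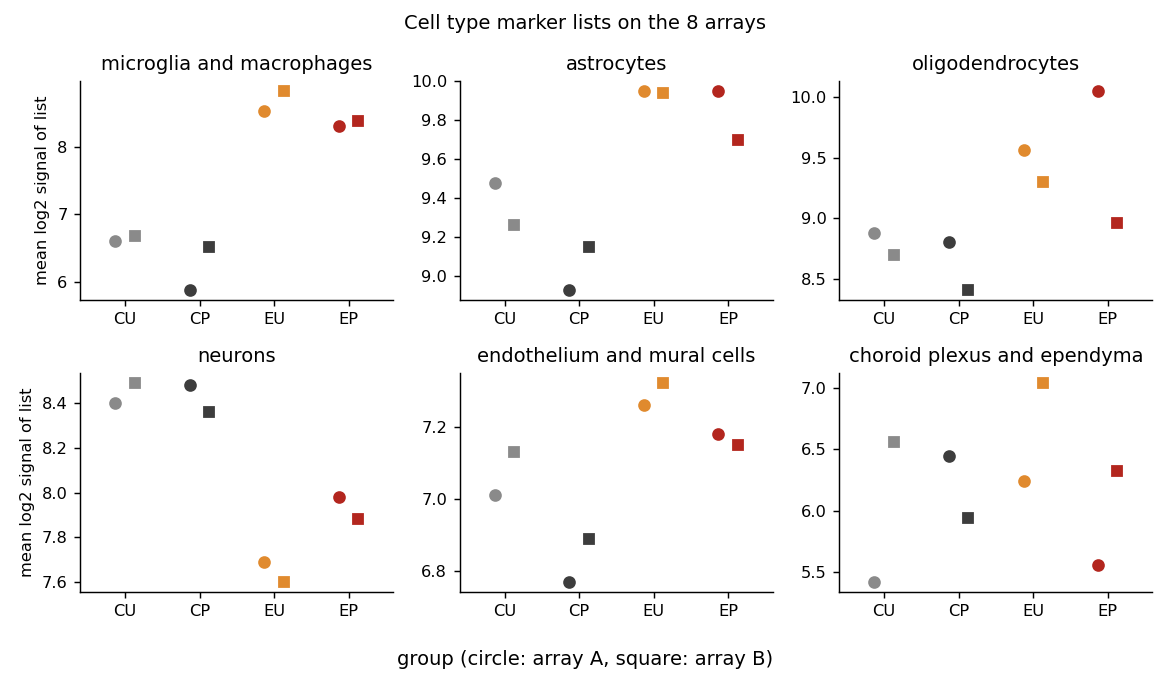
Mean log2 signal of the tested genes of 6 marker lists (vertical axes) on the 8 arrays by group (CU control unpaired, CP control paired, EU epileptogenic unpaired, EP epileptogenic paired); circles are arrays A and squares arrays B. Microglia and macrophage means are 5.88 to 6.68 on control and 8.31 to 8.83 on epileptogenic arrays, and neuronal means 8.36 to 8.49 and 7.60 to 7.98.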

How the data were processed

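The authors deposited linear signal intensities, made with MAS5 per the submitters' processing notes; its version and scaling target are not given in the sources used here. Medians per array were 29.0 to 43.2, no arrays were identical, and the number of arrays limits the precision. Values were used as log2 with no further normalization. After 57 control probe sets were left out, 18625 of 31042 probe sets passed a filter at the 40th percentile of mean log2 signal (4.35). Means of the 4 groups were fitted to all 8 arrays with an intensity trend (limma 3.58.1, R 4.3.3), and two-sided p-values were adjusted by Benjamini-Hochberg across the tested probe sets, at 0.05. SE are from this fit. The fit was also run on simulated data with known shifts, independent noise and no effect of the array letter. That run therefore does not cover the shared deviation of arrays of like letter. Symbols come from the platform annotation, whose gene IDs gave the same symbols in RefSeq for all 18 probe sets, and a gene was read by its brightest probe set.

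Arrays of like letter deviated together from their group means (correlations of 0.321 to 0.407 across probe sets in all 6 pairs of groups), so the letter was also entered as a replicate block; the labels do not say what it stands for, and p-values measure the spread between these pooled samples. Genes, lists, motifs and tests were chosen with earlier results of these data known. All probe sets of the 10 genes are given. From each list of lipid genes the 3 largest passing changes in each direction were named, or the 2 smallest p where none passed, and for Abca1, Apoe and Plin2 the 3 nearest profiles; of each marker list at most 3 genes were named. Background correction could not be varied from processed signals. Figures were drawn with matplotlib 3.10.9.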

Additional observations from a re-analysis of the deposited data

Results flagged for a closer look

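The 10 genes were examined for single arrays far from the other 3 of the same seizure group, by Dixon's criterion for 4 values; in 20 such sets chance gives about 1. Plin2 had 1 array apart: epileptogenic paired B, at a log2 signal of 8.32, stood below the other epileptogenic arrays, and still above every control array. Nr1h3 had 1 as well: control unpaired B read -0.39, far below the other control arrays, at signals under the filter level. The second brightest probe set of Abcg1 moved in opposite directions in the 2 trainings. Epileptogenic arrays were higher than the control arrays of like letter by 0.60 and 0.82 after unpaired training, and differed from them by -0.42 and -0.72 after paired training. The interaction of -1.28 ± 0.65 on the log2 scale did not pass in limma (adjusted p = 1.00).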

How the results depend on the processing

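Alternatives in the values were quantile normalization, median centring, an offset of 16 and averaging the probe sets of a gene. Alternatives in the fit were no filter, a 60th percentile filter, no trend, array weights, the replicate block, single letters and each array left out. In none did the epileptogenic against control difference change sign for the 9 genes or the 9 related genes named by rule. The filters, trend, weights and block gave the same difference as the main fit, so its sign was fixed there. For the 8 genes without overlap it was fixed also with the offset, single letters and each array left out. Olr1 and Trem2 were not tested under the 60th percentile filter. Of the 9 genes 7 were called in that contrast, against 3 with no trend, 5 with median centring, 8 with quantile normalization or the replicate block, 5 and 7 with letter A or B alone (chosen after seeing the data), and 2 to 6 with an array left out, the lowest without epileptogenic unpaired B. After unpaired training 0 became 2 with quantile normalization and 7 with the replicate block (0 with any array left out), and after paired training 1 became 0 with median centring, no trend or the mean of probe sets, 6 with the replicate block, and 0 to 1 with an array left out. For training and for the interaction the count was 0 under each of these alternatives run (the single letters were not). Related lipid genes called were 10, against 24 with the replicate block, 20 with letter B alone and 4 to 7 with an array left out. Over both trainings 2.81% of all tested probe sets were called upward in the main fit and 7.58% with the replicate block. Shares under the other alternatives are not given here, so these counts do not set the genes apart from the array. The cause of these moves was not tested. In the contrast over both trainings the replicate block changed 1 call among the 9 genes, Apoe. The median of all tested probe sets was -0.11, -0.01 with median centring and -0.05 with quantile normalization. Signals near or under the filter level (Olr1 in controls, Nr1h3) limit what can be said of size.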
